A study of Homo sapiens with 4 samples.

Results

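Melanocyte lineage genes are the genes that pigment cells use to specify their fate, to build melanosomes and to move them. The 8 described here are MITF, PMEL, GPNMB, GPR143, RAB27A, RAB38, SOX10 and MLANA, out of 58735 genes in the deposited files. Of these, 6 were chosen by their own level, having reached 1 FPKM (fragments scaled to exon length and to library size) or more in at least 1 library, and SOX10 and MLANA were added as canonical markers. The levels themselves therefore chose the members and are given as a description, without a test. Expression had been measured by RNA sequencing in OMM2.3, an established human uveal melanoma cell line grown in medium with 10% fetal bovine serum. The 4 groups held 1 library each: control, CCCP, DHA, and both compounds at once (the combination). CCCP is a protonophore (carbonyl cyanide m-chlorophenyl hydrazone), a small molecule that collapses the membrane potential of mitochondria. DHA is named in the labels by that abbreviation alone, and no source used here gives the doses, the times or the treatment of the control cells. With 1 library per group there was no spread between replicates, and every interval below is a 95% interval of counting error alone. In bulk RNA, fewer cells expressing a gene and less RNA per cell cannot be told apart.

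In melanocytes the transcription factor MITF, itself turned on by SOX10, PAX3 and cAMP signalling through CREB, drives the genes of pigment synthesis and of the melanosome. PMEL forms the fibrils on which melanin is laid down, MLANA assists PMEL processing, GPR143 is a receptor in the melanosome membrane, and GPNMB is a membrane glycoprotein related to PMEL. The small GTPases RAB38 and RAB27A act at successive steps, RAB38 in the delivery of cargo to immature melanosomes and RAB27A in holding mature ones on actin. GPNMB, RAB27A and MITF are also expressed outside the melanocyte lineage.

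The libraries held between 16900411 and 18937286 reads summed over genes, and 97 to 97.7% of them lay in protein-coding genes. The deposited values were used as they stood. Of 22 lineage and pigmentation genes, 7 reached 1 FPKM, namely the 6 members and LEF1, a Wnt-pathway partner of MITF, whose highest level was 1.28 FPKM. Next above LEF1 was PMEL, with a highest level of 2.55 FPKM, and first below the threshold was TFAP2A, with 0.694 FPKM. TYR, PAX3, SLC45A2, OCA2, EDNRB and KIT had 0 reads in all 4 libraries, where 3 reads would have been at most 0.0595 FPKM. The pigment enzyme genes TYRP1 and DCT had highest levels of 0.160 and 0.0136 FPKM. Of 12 diagnostic markers of melanoma, 5 reached 1 FPKM in at least 1 library, namely MITF, PMEL, CSPG4, MCAM and CD63. CSPG4 did so only under CCCP (1.18 FPKM), and lay at 0.830 FPKM in control, 0.497 under DHA and 0.287 with the combination. The other 7 markers, SOX10, MLANA, TYR and TYRP1 among them, had at most 0.282 FPKM. The label of a pigment-cell tumour thus stood beside some lineage markers at or near 0 and others that were expressed.

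**Figure D1:**
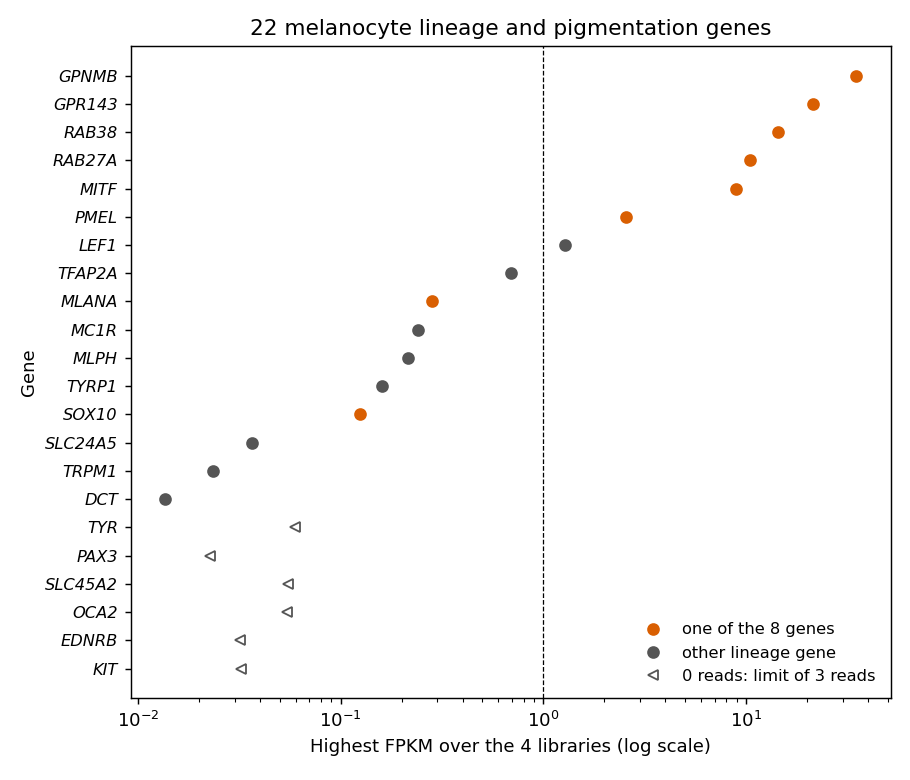
Highest FPKM over the 4 libraries, on a log axis, for each of 22 melanocyte lineage and pigmentation genes. Filled points are genes with reads, and open triangles are the 6 genes with 0 reads, drawn at the level 3 reads would give. The dashed line marks 1 FPKM, and 7 genes lie to its right.

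Markers of other cell types were measured in the same way. No endothelial marker of 8 reached 1 FPKM, with a highest level of 0.164 FPKM. No Schwann or neural crest marker of 9 did either, but the highest level, 0.997 FPKM, lay just under the threshold. Of 13 leukocyte markers only CSF1R reached it, at 1.25 FPKM in control. Of 8 genes of the retinal pigment epithelium, OTX2 (9.80 FPKM in control) and LRAT (1.05 FPKM) reached it, while RPE65 and TTR had 0 reads. Summed over 12 fibroblast markers the level was 75.1 FPKM in control, 52.0 under CCCP, 49.5 under DHA and 33.4 with the combination. Summed over 11 epithelial markers it was 380 FPKM, 302, 349 and 271 in the same order. The keratin genes KRT8 (195 FPKM in control) and KRT18 (180 FPKM) made up nearly all of that sum, while 7 of the 11 were under 1 FPKM, with CDH1 at 0.183 FPKM and EPCAM and ESRP1 at 0 reads in control. Both sums moved with the treatments, and their part in the values below was not tested.

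SOX10, the neural crest factor that switches on MITF, was close to undetectable. Its level was 0.0692 FPKM in control (5 reads), 0.0645 under CCCP (4 reads), 0.0156 under DHA (1 read) and 0.125 with the combination (8 reads). All 4 intervals overlapped, although the ratio of the combination to DHA, 8 reads against 1, was 7.99 (1.07 to 354). SOX10 (ENSG00000100146) lies on chromosome 22 from 37970686 to 37987422 on GRCh38, and 89 of its exon bases, 2.40% of the exon length, are shared with POLR2F on the opposite strand, which was at 3.30 to 4.05 FPKM. The library kit does not mark strand, so reads in the shared bases cannot be told apart.

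MLANA, the melanoma antigen also called MART-1, was likewise scarce. It had 13 reads in control (0.217 FPKM), 11 under CCCP (0.214 FPKM), 7 under DHA (0.132 FPKM) and 15 with the combination (0.282 FPKM). All 4 intervals overlapped, and the combination against control gave a ratio of 1.30 (0.578 to 2.97), so no difference was detectable at this depth. MLANA (ENSG00000120215) lies on chromosome 9 from 5890802 to 5910606. In the order of levels, MLANA and SOX10 were the lowest members in every library, and their intervals overlapped each other in each of the 4.

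MITF was moderately expressed and was lowest in the combination. Its level was 8.81 FPKM in control, 8.89 under CCCP, 7.35 under DHA and 5.01 with the combination. Control and CCCP did not differ beyond counting error, DHA was below both, and the combination was below all others without overlap of the intervals. The combination was 1.76-fold (1.59 to 1.94) lower than control, 1.77-fold (1.60 to 1.96) lower than CCCP alone and 1.47-fold (1.32 to 1.63) lower than DHA alone. DHA alone was 1.20-fold (1.10 to 1.31) lower than control, and CCCP alone gave a ratio of 1.01 (0.929 to 1.10). On log2(FPKM + 0.5), the scale used for all log2 ratios, the combination stood at -0.76 against control, and 9.08% of 13678 tested genes (at least 1 FPKM in at least 1 library) had a lower ratio. MITF (ENSG00000187098) spans chromosome 3 from 69739435 to 69968337, with 18 annotated transcripts from 15 start positions in GENCODE 29. FPKM per gene pools these transcripts, so the melanocyte M isoform was not separated from those that start further upstream.

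The start of the M isoform is shown because it is the MITF start at which SOX10, PAX3, LEF1 and CREB are known to act, and these regulators differed widely in level here. The sequence is the 250 bases before that start from RefSeq (GRCh38.p14, chr3:69936342-69936591, plus strand), written 5′ to 3′, and the capitals mark the cAMP response element.
MITF, M start: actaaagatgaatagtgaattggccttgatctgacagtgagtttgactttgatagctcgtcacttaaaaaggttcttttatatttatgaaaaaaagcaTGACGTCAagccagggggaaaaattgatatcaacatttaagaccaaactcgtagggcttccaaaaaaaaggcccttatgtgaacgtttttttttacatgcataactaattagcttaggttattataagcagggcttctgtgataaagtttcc
The motif searched was TGACGTCA, which reads the same on both strands, and it begins 152 bases before the start. Of 35116 promoter windows of the same length, 1.65% held it, and the other 2 MITF starts in the table did not. A match describes letters and not binding.

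Of the regulators that act on MITF, those of the cAMP and Wnt routes were present, with small differences in both directions. The CREB gene CREB1 lay at 6.91 FPKM in control and 7.62 with the combination, and LEF1 at 1.24 and 1.28 FPKM. Against control the combination gave a ratio of 1.10 (1.02 to 1.19) for CREB1. On the same list it gave 1.20 (1.08 to 1.34) for ATF1 and 0.885 (0.847 to 0.925) for CTNNB1. Such intervals excluded 1 for 60.2% of tested genes. ATF4, the stress-response factor that has been described as a repressor of MITF, lay at 104 FPKM in control, 129 under CCCP, 229 under DHA and 342 with the combination. BHLHE40, a hypoxia-induced repressor also reported to act on MITF, lay at 27.7 FPKM in control and at 10.2, 20.8 and 5.09 FPKM in the same order. The E-box repressor ZEB1 lay at 5.38 FPKM in control and 8.19 with the combination. Of the 12 regulators on this list that were tested, 1 was at least 2-fold higher and 1 at least 2-fold lower with the combination, against 4.52% and 5.44% of all tested genes. Any link of these levels to that of MITF was not tested.

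MITF has 3 relatives, TFEB, TFE3 and TFEC, which bind the same E-box family of sites and govern lysosomal genes. TFE3 was the most abundant of the 4 in every library, at 18.6 FPKM in control, 20.3 under CCCP, 20.7 under DHA and 23.3 with the combination. TFEB lay between 1.17 and 1.32 FPKM, and TFEC had 1 to 4 reads. The level of TFE3 was 2.11 times that of MITF in control and 4.66 times in the combination. Summed over the 4 genes, the level was 28.6 FPKM in control, 30.5 under CCCP, 29.3 under DHA and 29.6 with the combination. The sum was thus nearly level while the share held by MITF was lowest in the combination.

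**Figure D2:**
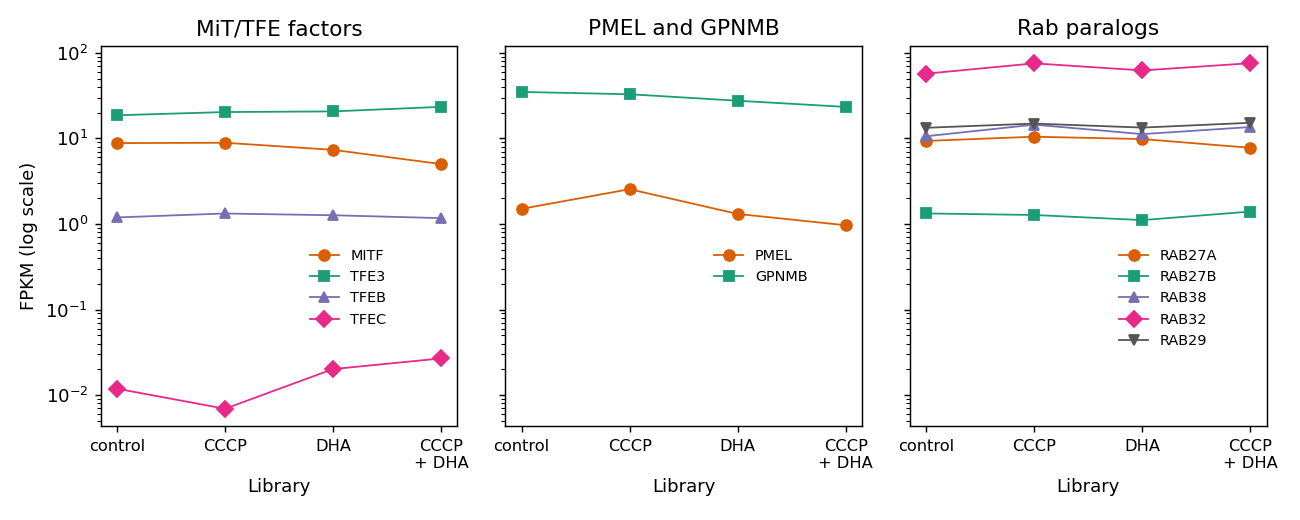
FPKM on a log axis in the 4 libraries for MITF and its relatives, for PMEL and GPNMB, and for RAB27A, RAB38 and related Rab genes. TFE3 and MITF diverge in the combination (23.3 and 5.01 FPKM), and RAB38 and RAB32 both lie higher in the CCCP library and the combination than in control. Lines only join the values of 1 gene.

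GPNMB was the most abundant member in all 4 libraries. It lay at 34.9 FPKM in control, 32.8 under CCCP, 27.5 under DHA and 23.3 with the combination. The intervals of control and CCCP overlapped only at their edges, and those of DHA and the combination lay below both and apart from each other. Against control the combination was 1.5-fold (1.42 to 1.57) lower, DHA 1.27-fold (1.21 to 1.33) lower and CCCP 1.06-fold (1.02 to 1.11) lower. GPNMB (ENSG00000136235) lies on chromosome 7 from 23235967 to 23275108, and its exons overlap no other annotated gene. The log2 ratio with the combination was -0.57, and 13.1% of tested genes lay lower.

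PMEL was the scarcest of the 6 tested members and the one with the widest relative range. It lay at 1.5 FPKM in control (114 reads), 2.55 under CCCP (166 reads), 1.31 under DHA (88 reads) and 0.965 with the combination (65 reads). The CCCP library stood above the other 3 without overlap, and the interval of DHA overlapped those of control and the combination. CCCP was 1.70-fold (1.33 to 2.17) higher than control, and the combination was 1.56-fold (1.14 to 2.14) lower than control and 2.64-fold (1.97 to 3.57) lower than CCCP. The last was the 1 value among the 6 tested members past 2-fold on the log2 scale, at -1.06, and it dropped below 2-fold with a pseudocount of 1 (-0.85) or equal library totals (-0.99). PMEL (ENSG00000185664, chromosome 12, 55954105 to 55973317) shares 89 exon bases, 2.28% of its length, with CDK2 on the opposite strand. CDK2 lay at 21.8, 20.1, 16.7 and 9.37 FPKM in control, CCCP, DHA and the combination, above PMEL in each, and reads in the shared bases cannot be told apart.

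GPNMB and PMEL are related proteins, but their levels per length differed 23.2-fold in control, 12.9-fold under CCCP, 21.0-fold under DHA and 24.2-fold with the combination. Of the 6 genes fixed as PMEL processing and sorting factors, none was 2-fold higher or lower with the combination, beside 9.96% of tested genes. FURIN, a proprotein convertase, lay at 28.9 FPKM in control and 19.4 in the combination, and BACE2, the protease that cleaves PMEL into its fibril-forming part, at 12.6 and 10.3 FPKM. CD63, a tetraspanin that sorts PMEL, lay at 145 and 133 FPKM. APOE, on whose particles PMEL fibrils assemble, was under 1 FPKM in control (0.399) and reached 1.07 under CCCP.

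GPR143, the receptor mutated in ocular albinism, was the only tested member that lay above control in the combination and higher there than with either compound. Its level was 16.5 FPKM in control, 18.4 under CCCP, 17.1 under DHA and 21.4 with the combination. The combination stood above the other 3 without overlap of the intervals, and the interval of control overlapped those of CCCP and DHA. The combination was 1.30-fold (1.18 to 1.43) higher than control, 1.16-fold (1.06 to 1.28) higher than CCCP and 1.25-fold (1.13 to 1.38) higher than DHA. The log2 ratio to control was 0.37, and 20.2% of tested genes had a higher one. GPR143 (ENSG00000101850) lies on the X chromosome from 9725346 to 9786297. Of the 6 genes for G proteins and arrestins that can carry its signal, 1 lay above control in the combination and 5 below, none by 2-fold. Of all tested genes, 50.7% lay above control there and 9.96% were past 2-fold. GNAQ, the G protein gene often mutated in uveal melanoma, lay at 16.5 FPKM in control and 15.8 in the combination, GNAI2 at 52.1 and 35.5 FPKM, and ARRB1 at 4.20 and 2.56 FPKM. The level of GPR143 was 0.472 times that of GPNMB in control and 0.918 times in the combination, where the intervals of both genes overlapped.

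GPNMB and GPR143, both known MITF targets, went in opposite directions in the combination, and their RefSeq start windows are shown for that reason. Each is the 250 bases before the start, 5′ to 3′ on the strand of the gene, and the capitals mark the M-box core, the E-box variant TCATGTG or its reverse complement CACATGA that MITF prefers.
GPNMB (chr7:23246525-23246774, plus strand): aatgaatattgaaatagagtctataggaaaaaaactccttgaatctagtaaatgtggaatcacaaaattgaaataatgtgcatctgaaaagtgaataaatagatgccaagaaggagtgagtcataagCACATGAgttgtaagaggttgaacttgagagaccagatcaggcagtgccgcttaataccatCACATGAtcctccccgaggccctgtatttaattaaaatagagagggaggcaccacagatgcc
GPR143 (chrX:9765848-9766097, minus strand): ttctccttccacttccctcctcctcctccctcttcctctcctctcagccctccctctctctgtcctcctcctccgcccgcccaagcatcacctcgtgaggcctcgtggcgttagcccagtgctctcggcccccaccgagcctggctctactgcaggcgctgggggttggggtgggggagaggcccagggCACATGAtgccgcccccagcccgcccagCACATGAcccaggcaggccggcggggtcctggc
Both windows held 2 copies, which begin 123 and 62 bases before the start in GPNMB and 61 and 33 bases before it in GPR143. Of 35116 windows, 2.52% held the motif on either strand and 0.0683% held 2 or more. The windows of MLANA, of 3 MITF starts and of 5 RAB27A starts held none, nor did any of the 11 windows of members hold the E-box CACGTG, present in 6.34% of all windows. The GPR143 start in RefSeq lies inside the wider GENCODE 29 span of the gene, and no GENCODE 29 transcript starts close to it. The GPNMB start lies inside the span of its gene as well, but there GENCODE 29 transcripts do start close by. PMEL, RAB38 and SOX10 had no entry in that table. Of the 2 genes with these windows, GPNMB was lower and GPR143 higher in the combination. Any link of the motifs to these levels was not tested.

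RAB38 was higher in both libraries that contained CCCP. It lay at 10.6 FPKM in control (302 reads), 14.5 under CCCP (354 reads), 11.2 under DHA (283 reads) and 13.6 with the combination (343 reads). The intervals of the CCCP library and the combination overlapped each other and lay above that of control, while DHA overlapped control and the combination. CCCP was 1.37-fold (1.17 to 1.60) higher than control, the combination 1.28-fold (1.09 to 1.5) higher than control and 1.21-fold (1.03 to 1.42) higher than DHA. RAB32, which shares the function and the exchange factor of RAB38, lay at 57.0, 75.3, 62.2 and 75.6 FPKM in control, CCCP, DHA and the combination. The level of RAB32 was 5.20 to 5.57 times that of RAB38 in the 4 libraries. The exchange factor subunits HPS1 and HPS4 lay at 8.60 and 5.42 FPKM in control and 8.70 and 5.97 FPKM in the combination. RAB38 (ENSG00000123892) lies on chromosome 11 from 88113242 to 88175467.

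RAB27A was lowest in the combination. It lay at 9.34 FPKM in control, 10.5 under CCCP, 9.82 under DHA and 7.76 with the combination. The first 3 had overlapping intervals, and the combination lay below them. The combination was 1.20-fold (1.09 to 1.32) lower than control, 1.35-fold (1.22 to 1.48) lower than CCCP and 1.26-fold (1.15 to 1.39) lower than DHA. Its paralog RAB27B lay between 1.11 and 1.40 FPKM. RAB27A (ENSG00000069974, chromosome 15, 55202966 to 55319113) shares 154 exon bases with PIGB on the opposite strand and 183 with PIGBOS1 on its own strand, 2.75% and 3.26% of its exon length. PIGB lay at 2.33 to 3.06 FPKM and PIGBOS1 at 4.76 to 5.78 FPKM, both highest in the combination.

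Of 17 genes for partners, effectors and modifiers of RAB27A, 11 reached 1 FPKM. MLPH, the melanophilin linker that ties RAB27A to myosin Va, had a highest level of 0.215 FPKM, whereas the myosin Va gene MYO5A lay at 4.77 FPKM in control and 6.43 in the combination. RABGGTB and RABGGTA, the subunits of the enzyme that prenylates Rab proteins, lay at 13.2 and 3.48 FPKM in control and 23.9 and 5.34 in the combination. UNC13D, an effector in secretory granule release, lay at 11.1 and 7.88 FPKM. The effector gene SYTL2 was the 1 of 11 tested partners past 2-fold in the combination, from 1.05 to 0.221 FPKM, a share near the 9.96% of all tested genes. Of the 22 genes for the BLOC, AP-3 and related complexes that build melanosomes and other lysosome-related organelles, all were tested and none was 2-fold away from control in any treated library. The shares of all tested genes past 2-fold were 5.53% under CCCP, 3.87% under DHA and 9.96% with the combination. The median log2 ratios of the 22 genes were 0.00 under CCCP, 0.04 under DHA and 0.11 with the combination.

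**Figure D3:**
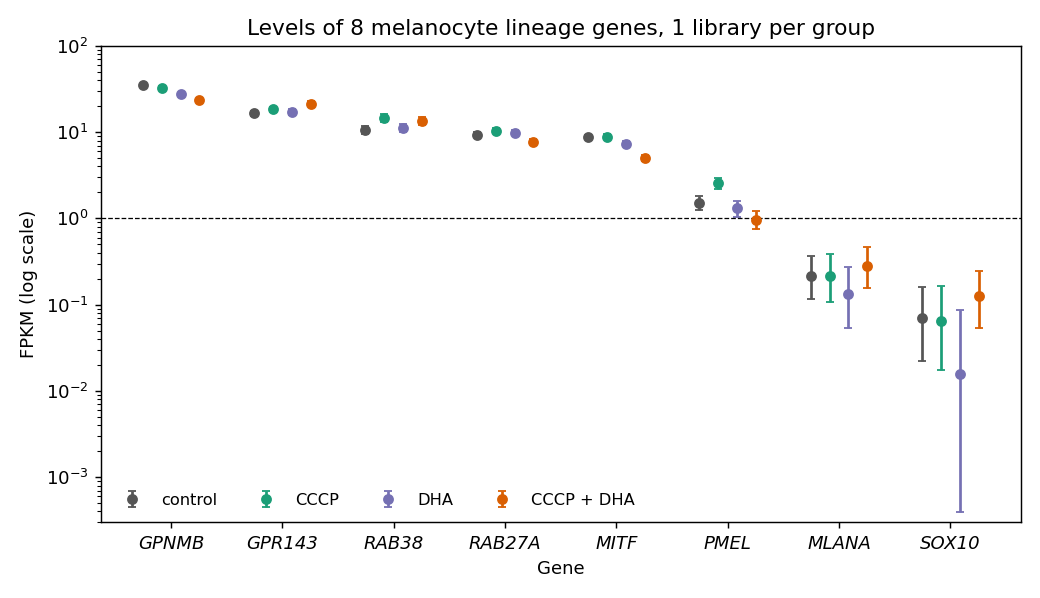
FPKM on a log axis of the 8 genes in the 4 libraries, with bars for the 95% Poisson interval of counting error. The dashed line marks 1 FPKM. MLANA and SOX10 lie below it in all 4 libraries with wide bars, and GPNMB lies highest.

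The order of levels was the same in all 4 libraries, from GPNMB through GPR143, RAB38, RAB27A, MITF, PMEL and MLANA to SOX10. Not every neighbour in that order differed beyond counting error. RAB38 and RAB27A had overlapping intervals in control and DHA, RAB27A and MITF in control, GPNMB and GPR143 in the combination, and MLANA and SOX10 in every library. Summed over the 8 genes, the level was 81.9 FPKM in control, 87.8 under CCCP, 74.5 under DHA and 72.5 with the combination.

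Counted over the 6 tested members, no log2 ratio to control reached 2-fold in either direction in any treated library. The share of all tested genes past 2-fold was 5.53% under CCCP, 3.87% under DHA and 9.96% with the combination. In the combination against CCCP 1 member was past 2-fold (PMEL, lower), against a background of 8.4% (3.46% higher, 4.94% lower), and against DHA none was, against 6.9%. At 1.5-fold the counts were 1 under CCCP (PMEL, higher), 0 under DHA, 1 in the combination against control (MITF, lower), 2 against CCCP (MITF and PMEL, lower) and 0 against DHA, where 14.3%, 8.58%, 23.8%, 21.3% and 17% of tested genes passed. Counts of 0 to 2 among 6 genes are near these backgrounds. The members' median log2 ratios were 0.15 under CCCP, -0.05 under DHA and -0.35 with the combination, and those of all tested genes were 0.00, 0.00 and 0.01. The counting intervals excluded a ratio of 1 for 5 of the 6 under CCCP (4 higher, 1 lower), 2 under DHA (both lower) and 6 with the combination (2 higher, 4 lower). The same held for 51.6% of all tested genes under CCCP (25.8% higher, 25.8% lower), 35.3% under DHA (18.1% higher, 17.2% lower) and 60.2% in the combination (30.8% higher, 29.3% lower). With library totals made equal the count under CCCP was 3 (PMEL and RAB38 higher, GPNMB lower), as the intervals of GPR143 and RAB27A then included 1, and the counts of the other comparisons did not move. Against CCCP it held for 5 members in the combination (1 higher, 4 lower) and 56.9% of tested genes (29.4% higher, 27.5% lower). Against DHA it held for 5 members (2 higher, 3 lower) and 53.2% of tested genes (26.6% each way). With equal totals the intervals excluded 1 for 54.5% of tested genes under CCCP, 40.4% under DHA and 59.9% in the combination. For the combination against CCCP and against DHA these shares were 58.4% and 54.8%. Counting error is only a part of the spread that replicates would show, and that spread was not measured. All 6 tested members were above 1 FPKM in control, so none had entered through a treated library.

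**Figure D4:**
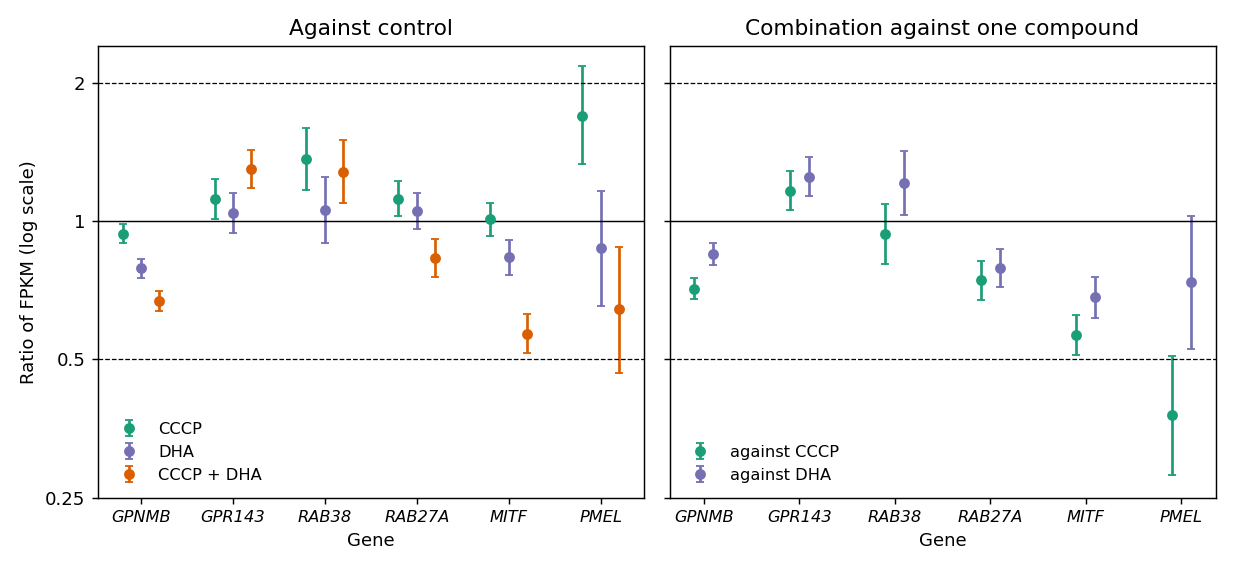
Ratio of FPKM on a log axis for the 6 genes at 1 FPKM or more, each treated library against control (left) and the combination against each single compound (right), with 95% counting intervals. Dashed lines mark 2-fold. Against control all points lie within 2-fold, and PMEL in the combination against CCCP lies below it (2.64-fold lower).

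An additive fit with limma-trend, with 1 residual degree of freedom, set the 2 libraries that had a compound against the 2 that lacked it. The fit had no interaction term, so its residual is the departure from additivity, standing in for the spread between replicates. The SE and p values below therefore do not measure that spread. No member passed an adjusted p of 0.05 for either compound, where 0.095% of tested genes did for CCCP and 0.102% for DHA. For CCCP 1 member had an unadjusted limma p under 0.05, RAB38, at log2 0.35 (SE 0.14, adjusted p 0.33), higher in 2 of 2 pairs. For DHA 2 members did, MITF at log2 -0.51 (SE 0.17, limma adjusted p 0.342) and GPNMB at -0.41 (SE 0.14, limma adjusted p 0.363), each lower in 2 of 2 pairs. Of all tested genes, 14.5% had an unadjusted limma p under 0.05 for CCCP and 12.1% for DHA. With limma voom on recovered reads the counts of members at an adjusted p of 0.05 were again 0. An unadjusted voom p under 0.05 was reached by 0 members for CCCP and 3 for DHA, beside 16.9% and 15.2% of tested genes. An adjusted p above the threshold does not show that the levels were equal.

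For 5 of the 6 tested members the combination lay below what the single compounds would give if their log2 ratios simply added, and for 4 of these the counting interval of the departure excluded 0. These intervals are approximate, since their width came from the reads alone and takes no account of the added 0.5 FPKM. That matters most for PMEL, the scarcest of the 6. The median departure of all tested genes was -0.003. Their shares below 0, or with an interval that excluded 0, were not computed, so these counts have no background. With library totals made equal, 3 of the 6 lay below (MITF, PMEL and RAB27A), each with an interval that excluded 0. The departure was -0.52 (-0.71 to -0.33) for MITF, whose single ratios summed to -0.23 against -0.76 in the combination. It was -0.91 (-1.49 to -0.33) for PMEL and -0.47 (-0.66 to -0.29) for RAB27A, both of which had single ratios that summed to above 0 (0.46 and 0.22). For GPNMB it was -0.15 (-0.25 to -0.04), and with equal totals 0.032 (-0.07 to 0.13), so its sign rested on the scaling. The interval of RAB38 (-0.17, from -0.48 to 0.15) included 0, and its sign turned with equal totals (0.0063). The interval of GPR143 (0.16, from -0.04 to 0.36) included 0 as well, but excluded it with equal totals (0.34, from 0.13 to 0.54) and with the exon-length trend removed (0.22, from 0.02 to 0.42). With equal totals the departure of RAB27A was -0.30 (-0.49 to -0.12). No tested member departed by 1 or more, as 8.18% of tested genes did, although PMEL did so with a pseudocount of 0.1 (-1.13), and the range from the 5th to the 95th percentile of all tested genes was -0.94 to 0.83. With 4 libraries the departure has no test.

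**Figure D5:**
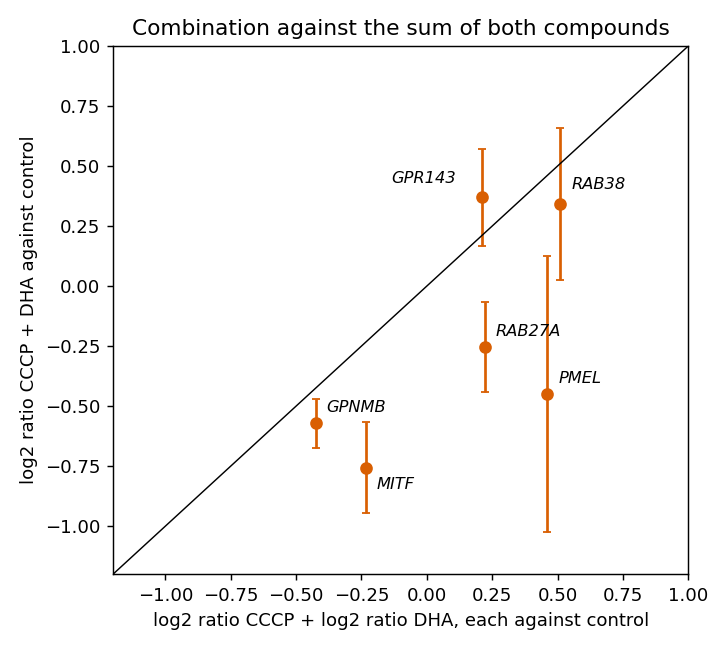
Log2 ratio of the combination to control against the sum of the log2 ratios of CCCP and DHA, for the 6 genes. Bars are approximate 95% counting intervals of the departure, and the diagonal is where the ratios add. MITF, PMEL, RAB27A and GPNMB lie below the diagonal with bars that do not reach it. With equal library totals, not drawn here, the bar of GPNMB would reach it.

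Among 57 genes reported as MITF targets in melanoma, 31 reached 1 FPKM, with the 5 members GPNMB, GPR143, PMEL, RAB27A and RAB38 among them. In the combination 14 of the 31 lay above control and 17 below, with a median log2 ratio of -0.04, and 2 were at least 2-fold lower and none at least 2-fold higher, close to the 5.44% and 4.52% of all tested genes. The 2 were SORT1, which encodes the sorting receptor sortilin, from 45.3 to 18.0 FPKM, and CDK2, the cell cycle kinase, from 21.8 to 9.37 FPKM. TMC6 lay at 1.23 and 2.35 FPKM, and IVNS1ABP at 21.8 and 14.1 FPKM. Under CCCP 26 of the 31 lay above control, with a median of 0.22, and under DHA 11 did, with a median of -0.04. Of all tested genes 49.9% lay above control under CCCP, 49.9% under DHA and 50.7% in the combination. With library totals made equal, which multiplies every ratio of FPKM to control by a constant (log2 -0.11 under CCCP, -0.10 under DHA and -0.03 with the combination), 24, 3 and 14 of the 31 lay above control, beside 38.2%, 32.8% and 48.3% of tested genes. The targets lay on both sides of control in the combination, as did all tested genes. Any link of their levels to that of MITF was not tested.

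The genes whose pattern was most like that of a member were found by the Euclidean distance over the 3 log2 ratios to control, over 4 libraries, with pseudogenes and genes whose mean was under 5 FPKM left out. For MITF they were PRDX2 (distance 0.0284), PTGFRN (0.029) and TRAPPC1 (0.0336). For GPNMB they were ADD3, POMK and EMC10, and for PMEL KLHDC8B, UCP2 and BEGAIN, the last at 0.0976. For GPR143 they were MYSM1, MED12 and FOXK1, for RAB27A HDGFL2, AP1S1 and CD59, and for RAB38 UBE2R2, TENT2 and GNAI1. Within a distance of 0.2 there were 83 genes for MITF, 102 for GPNMB, 18 for PMEL, 543 for GPR143, 258 for RAB27A and 211 for RAB38.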

How the data were processed

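RNA from 4 libraries of OMM2.3 cells, 1 per group, had been prepared with an Illumina TruSeq RNA kit from 1 ug of total RNA, per the labels' protocols. Per the file headers the deposited values are FPKM, listed for 58735 genes in each library. No source used here names the aligner, the counter or the build. Coordinates, exon lengths and transcripts came from GENCODE 29 (GRCh38), which holds every identifier in the files. Multiplying FPKM by exon length gave whole reads for 100% of genes above 0 (tolerance 0.01 reads). The values already carry a scaling between libraries, since median-of-ratios factors of the deposited values were equal over the 4.

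Log2 ratios used FPKM plus 0.5 over the 13678 genes that reached 1 FPKM in any library. Comparisons of 2 libraries had no test. Folds given with intervals are ratios of FPKM with exact 95% Clopper-Pearson intervals, and levels have exact Poisson intervals. Departures from additivity have approximate 95% normal intervals. Their width came from the reads of the 4 libraries, without the added 0.5 FPKM, and was kept the same under every alternative. PCR reads without molecular identifiers are not independent molecules, so all of these intervals cover counting error only. The additive fit used limma 3.58.1 (trend) in R 4.3.3 with Benjamini-Hochberg adjustment over all tested genes, and was tested on simulated data. All members were named, other genes came from fixed lists, first those with the largest ratio in the combination. Members and lists were chosen with earlier results of these data known. Promoter windows came from RefSeq (GRCh38.p14), and 5 of 8 members matched. Alternatives were other pseudocounts, filters, scalings, fold rules, limma without trend and voom. Removal of the exon-length trend, and equal totals for intervals and for list counts, were chosen after seeing the data. Ratios and intervals were computed in Python 3.11.15 with pandas 2.3.3 and scipy 1.17.1, on numpy 2.4.6, and drawn with matplotlib 3.10.9.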

Additional observations from a re-analysis of the deposited data

How the results depend on the processing

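No paired analysis was possible because each group had 1 library and the labels carry no replicate numbers. Over 5 comparisons the count of members past 2-fold was 0, except for 1 in the combination against CCCP. That 1 became 0 with a pseudocount of 1, with equal library totals, with a 4-fold rule, and with a filter at a mean of 5 FPKM, where PMEL is not tested. A 1.5-fold rule gave 1 for CCCP against control (PMEL), 1 for the combination against control (MITF) and 2 for the combination against CCCP (MITF and PMEL), beside 14.3%, 23.8% and 21.3% of tested genes. With equal library totals the departure from additivity of GPNMB went from -0.15 to 0.032, that of RAB38 from -0.17 to 0.0063, that of GPR143 from 0.16 to 0.34 and that of RAB27A from -0.47 to -0.30. With a pseudocount of 0.1 that of PMEL went from -0.91 to -1.13 and that of SOX10, on 1 to 8 reads, from 0.29 to 1.00. Members called in the additive fit stayed at 0 under all 8 alternatives, with a lowest adjusted limma p of 0.0661 (DHA, voom). Genes called in all, 13 for CCCP and 14 for DHA, became 21 and 16 with a pseudocount of 0.1, 24 and 12 with 1, 508 and 404 with equal library totals, 89 and 34 with the filter at a mean of 5 FPKM, 0 and 0 without the trend, 751 and 681 with voom, and 997 and 1001 with no filter, where limma warned that its variances were unreliable. Without the trend 1496 and 1126 genes had an unadjusted p under 0.05. Of 200 recomputed log2 ratios of members (40 ratios under 5 settings), 196 kept their sign. Other pseudocounts and the equal median-of-ratios factors cannot change a sign. Only equal library totals and removal of the exon-length trend could have done so, and the count of 196 is therefore no measure of stability. The 4 ratios that changed sign had been within 0.08 of 0 and changed with equal library totals. They were MITF under CCCP (-0.09) and, under DHA, GPR143 (-0.04), RAB27A (-0.03) and RAB38 (-0.02). Leaving out a library was not run, since no residual degree of freedom would remain. Depth limits SOX10 and MLANA, which had 1 to 15 reads per library.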

Other observations

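Several genes of the dedifferentiated, mesenchymal-like state of melanoma were far more abundant than the lineage genes. Of 15 such genes 13 reached 1 FPKM, among them the receptor tyrosine kinase gene AXL at 377 FPKM in control, 498 under CCCP, 422 under DHA and 533 with the combination. The intermediate filament gene VIM lay at 854 FPKM in control and 655 in the combination. NGFR, a neural crest receptor on the same list, had 0 reads. In the combination 2 of the 13 were at least 2-fold lower, against 5.44% of all tested genes, namely THBS1, which encodes a secreted matrix glycoprotein, from 706 to 145 FPKM, and SOX9, from 28.1 to 9.35 FPKM. Both were also at least 2-fold lower under CCCP alone, THBS1 at 339 FPKM and SOX9, a relative of SOX10, at 10.2 FPKM.

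All 21 genes of the lysosomal program governed by TFEB and TFE3 reached 1 FPKM. In the combination 11 lay above control and 10 below, with a median log2 ratio of 0.04, where 50.7% of tested genes lay above. Beside 4.52% of tested genes, 1 of the 21 was at least 2-fold higher. That was SQSTM1, an autophagy receptor, at 40.7 FPKM in control, 55.6 under CCCP, 55.2 under DHA and 129 with the combination. Under CCCP 18 of the 21 lay above control, with a median of 0.17, beside 49.9% and 0.00 for all tested genes, and with library totals made equal 11 of the 21 did, beside 38.2%. These counts describe 1 library per group and have no test.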
